A study of Mus musculus with 9 samples.

Results

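The core pluripotency factors and their partners were followed in mouse embryonic stem cells as 9 genes of the 38293 in the count table, chosen by name: Pou5f1, Sox2, Nanog, Sall4, Utf1, Dppa2, Dppa4, Dppa5a and L1td1. No measured value entered the choice of these genes, but it was made with earlier results of these data known. E14, an embryonic stem cell line of the 129/Ola strain, was sequenced in 3 culture states with 3 biological replicates each. The mESC-2i cells, labelled naive, grew in serum-free N2B27 medium with the MEK inhibitor PD0325901 at 1 µM, the GSK3 inhibitor CHIR99021 at 3 µM and leukaemia inhibitory factor (LIF) at 10 ng/mL. Their sample titles, unlike those of the other states, carry the letters LT. The mESC-ser cells, labelled primed, grew on gelatin with foetal bovine serum at 15% and LIF at 10 ng/mL. EpiLC, a model of the epiblast after implantation, were differentiated from the 2i cells on fibronectin in N2B27 with activin A at 20 ng/mL, bFGF at 12 ng/mL and knockout serum replacement (KSR) at 1%. All states came from 1 cell line, and the labels name no genetic change. The states differ in several agents at once, whose parts cannot be told apart.

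Pluripotent cells of the early embryo and of culture are held in that state by a small circuit of transcription factors. OCT4, the product of Pou5f1, binds DNA together with SOX2, and the pair and NANOG bind the regulatory regions of their own and of each other's genes. SALL4, a zinc finger protein, works with the same circuit and recruits the NuRD repressor complex. UTF1 is a chromatin protein of undifferentiated cells, DPPA2 and DPPA4 are paired chromatin proteins that act on genes of the early embryo and on developmental promoters, DPPA5A is a small KH-domain RNA-binding protein, and L1TD1 is an RNA-binding protein derived from a LINE-1 element. When naive cells move towards the formative state that EpiLC model, OCT4 is known to be kept while much of the naive programme is lost.

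The joint OCT4-SOX2 element is an octamer-like POU part followed by a SOX core. The letters of this element and of its parts were sought in promoters of the 9 genes. RefSeq promoter windows on GRCm38.p6, reaching from 250 bases before to 50 bases after a transcription start, were present for 5 of the 9 genes. Sall4, Dppa2, Dppa4 and Dppa5a had no entry. Both strands were searched for the POU part, TTTGCAT, for the SOX core, ACAATG, and for the composite, which is the first followed on the same strand after 0 to 3 bases by the second. Capitals mark the matches, and all 4 windows below are on the plus strand. The Nanog window (chr6:122707239-122707538) is the one with the composite, which starts 75 bases before the start site. The Sox2 window (chr3:34649745-34650044) lies upstream of the start of the gene in GENCODE and holds the POU part on the minus strand, so that its complement stands in capitals. The inner Pou5f1 window (chr17:35508557-35508856) lies within the gene and holds the SOX core. The Utf1 window (chr7:139943606-139943905), shown because the largest single change among the 9 genes was that of Utf1, holds none of the 3 motifs.
Nanog: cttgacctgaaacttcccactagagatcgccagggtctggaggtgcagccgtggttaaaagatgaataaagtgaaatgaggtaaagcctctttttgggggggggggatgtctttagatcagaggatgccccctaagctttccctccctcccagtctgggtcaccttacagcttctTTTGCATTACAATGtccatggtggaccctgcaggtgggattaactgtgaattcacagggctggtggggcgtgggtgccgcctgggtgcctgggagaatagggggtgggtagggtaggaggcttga
Sox2: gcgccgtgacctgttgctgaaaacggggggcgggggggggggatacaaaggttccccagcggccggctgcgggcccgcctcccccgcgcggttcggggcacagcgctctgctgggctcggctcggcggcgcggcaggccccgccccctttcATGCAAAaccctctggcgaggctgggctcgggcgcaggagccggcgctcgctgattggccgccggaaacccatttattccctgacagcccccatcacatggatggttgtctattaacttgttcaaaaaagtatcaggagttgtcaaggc
Pou5f1: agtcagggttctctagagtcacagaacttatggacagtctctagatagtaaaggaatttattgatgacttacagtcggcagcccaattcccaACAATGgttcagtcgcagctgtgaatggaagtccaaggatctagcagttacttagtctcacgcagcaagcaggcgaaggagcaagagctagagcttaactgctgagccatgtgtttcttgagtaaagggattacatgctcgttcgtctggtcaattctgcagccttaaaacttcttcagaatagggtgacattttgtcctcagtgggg
Utf1: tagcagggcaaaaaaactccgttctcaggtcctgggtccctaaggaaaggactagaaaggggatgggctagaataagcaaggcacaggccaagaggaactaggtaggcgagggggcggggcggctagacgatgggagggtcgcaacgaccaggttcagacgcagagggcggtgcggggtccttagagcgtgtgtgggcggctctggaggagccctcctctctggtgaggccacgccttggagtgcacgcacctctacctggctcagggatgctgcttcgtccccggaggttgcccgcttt
The POU part was found in 4.63% of 32851 mouse promoter windows and the SOX core in 12.6%. The composite was found in 3 windows (0.00913%), of which 2 are overlapping windows of Nanog and the other belongs to Acyp1. The outer Pou5f1 window and the L1td1 window held none of the letters searched. Only exact letters within these windows were searched, so variants of the motifs and sites elsewhere would be missed. A match of letters is a description and does not show that a factor was bound.

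Poly-A RNA was sequenced as 50 bp single-end reads, and the libraries held between 7187576 and 16829549 counted reads. Levels are given as CPM, counts relative to library size, scaled by TMM, edgeR's trimmed mean of M-values, over all 9 libraries, as mean ± SD with n = 3. Replicate 3 of mESC-2i and of mESC-ser stood apart from the other replicates of its group, with chi-square values per degree of freedom of 11.8 to 30.5 against 1.66 to 4.86 for the other pairs within a group. Each pair of states was tested with edgeR's quasi-likelihood test, and a gene was called, written below as rose or fell, at a Benjamini-Hochberg adjusted p under 0.05 over all tested genes and an absolute log2 fold change over 0.5. All 9 genes passed the filter on low counts in all 3 comparisons. Without replicate 3 in both groups, an alternative added after seeing the data, the numbers of the 9 genes called in each direction were the same in every comparison. In bulk RNA, fewer cells that express a gene and less RNA per cell cannot be told apart.

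From mESC-2i to mESC-ser, Sall4, Utf1, Dppa2, Dppa4 and L1td1 rose and Nanog and Dppa5a fell, while Pou5f1 and Sox2 were not called. These were 5 genes called higher, against 25.9% of the 15728 genes tested, and 2 called lower, against 30.3%. In all 7 of 9 were called, beside 56.2% of all genes tested. The groups did not overlap in CPM for the same 7 genes, and for 70.4% of all genes. From mESC-2i to EpiLC, Utf1, Dppa2, Dppa4 and L1td1 rose, Sox2 and Nanog fell, and Pou5f1, Sall4 and Dppa5a were not called. This made 4 called higher beside a background of 32%, and 2 called lower beside 37.8%. The 6 called genes stood beside 69.8% of 15378 genes called, and their groups did not overlap, as for 81.8% of genes. From mESC-ser to EpiLC, Utf1 and Dppa5a rose and Sox2, Nanog, Sall4 and L1td1 fell. Here 2 called higher stood beside 35.5%, 4 called lower beside 37.8%, and 6 called in all beside 73.3% of 15345 genes. The groups did not overlap for any of the 9 genes, and for 85.6% of all genes. Among the 9 genes the share called was 77.8% in mESC-ser against mESC-2i, above its background, and 66.7% in both comparisons with EpiLC, below theirs. What follows describes the single genes, since 9 chosen genes give no test of an excess. The 3 comparisons share libraries by pairs and are not independent of each other. Going from mESC-ser to EpiLC names a comparison and not a course of the cells, since EpiLC were differentiated from the 2i cells.

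**Figure D1:**
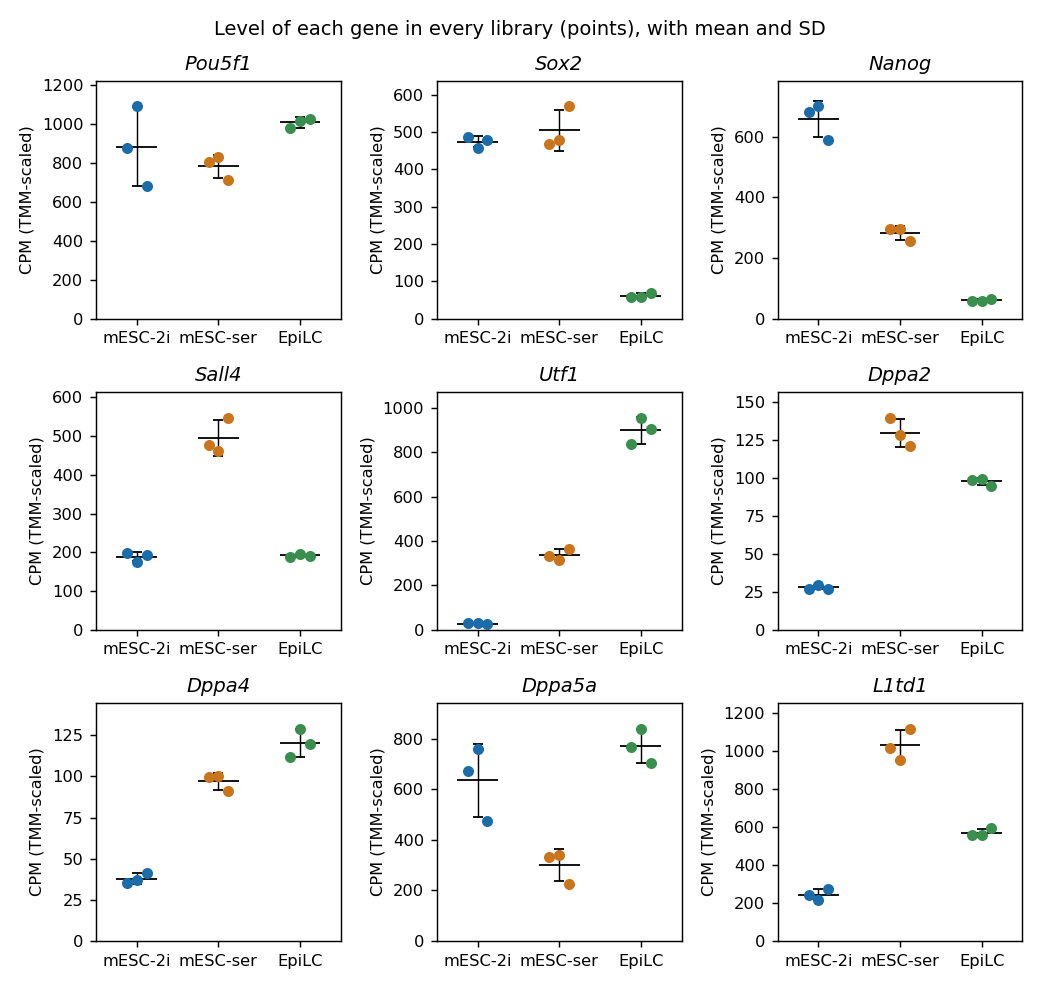
Level of each of the 9 genes in every library, in TMM-scaled CPM on linear axes that start at 0, with points for the libraries of mESC-2i (blue), mESC-ser (orange) and EpiLC (green), long bars for means and whiskers for SD (n = 3). Pou5f1 stays between 682 and 1088 CPM in all 9 libraries, Sox2 and Nanog are lowest in EpiLC, and Utf1 is lowest in mESC-2i and highest in EpiLC.

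In both comparisons with EpiLC, Pou5f1 differed least of the core factors. It stood at 877, 1088 and 682 CPM in the mESC-2i libraries, 802, 827 and 713 in those of mESC-ser, and 976, 1016 and 1026 in the EpiLC libraries. The mESC-2i libraries spanned both other groups, and the EpiLC libraries lay above all mESC-ser libraries. The log2 fold change of mESC-ser against mESC-2i was -0.20 (95% interval -0.55 to 0.15, adjusted p = 0.288), and that of EpiLC against mESC-2i was 0.19 (-0.14 to 0.52, adjusted p = 0.266). EpiLC stood above mESC-ser by 0.44 ± 0.08 (SE, adjusted p = 0.000135), a difference beyond the replicate spread but under the fold threshold. With offsets for exonic length and GC content it was -0.09, so its direction was not kept. Pou5f1 overlaps the antisense gene Gm19553 over 317 bp, 14.1% of its exons, and the counting was not stated to use strand. Gm19553 held 9 to 41 counts in a library, at most 0.441% of the Pou5f1 count. This does not bound the reads that Pou5f1 may have lost over the overlap, which was not tested.

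Sox2 differed little between the mESC states and fell in EpiLC. Its CPM was 486, 457 and 477 in the mESC-2i libraries, 467, 477 and 568 in those of mESC-ser, and 58.2, 58.0 and 69.0 in the EpiLC libraries. The mESC groups overlapped, and the highest EpiLC library lay far below the lowest of either. Sox2 fell by 2.94 on the log2 scale against mESC-2i, a 7.67-fold difference (adjusted p = 4.75e-09). It fell by 2.96 against mESC-ser, a 7.77-fold difference (adjusted p = 1.57e-13). Between the mESC states the log2 fold change was 0.06, with a 95% interval of -0.17 to 0.30 that leaves out a difference as large as the fold threshold. With offsets for length and GC it was 0.44 (adjusted p = 0.00516), still not called.

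Nanog differed in every comparison. Its CPM was 683, 699.6 and 589.6 in the mESC-2i libraries, 297, 296 and 257 in those of mESC-ser, and 59.3, 58.7 and 65.7 in the EpiLC libraries. No library of one state overlapped another state, and the order was the same under every scaling tried. Nanog fell by 1.24 on the log2 scale from mESC-2i to mESC-ser (adjusted p = 6.97e-06), by 3.43 from mESC-2i to EpiLC (adjusted p = 2.56e-09) and by 2.14 from mESC-ser to EpiLC (adjusted p = 1.99e-12). Mean levels were 657 ± 59.3, 283 ± 22.8 and 61.2 ± 3.84 CPM.

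Per length, in CPM divided by the kilobases of exon (RPKM), the balance of the 3 core factors shifted to Pou5f1 in EpiLC. Of their summed RPKM, Pou5f1 held 42.5% ± 4.79 in the mESC-2i libraries, and its share was 48.3% ± 3.04 for mESC-ser and 88.7% ± 0.695 for EpiLC (SD, n = 3). The share of Sox2 was 25.4% ± 3.61, 34.1% ± 4.23 and 5.94% ± 0.468, and that of Nanog was 32.1% ± 1.27, 17.6% ± 1.22 and 5.41% ± 0.233. The share of Pou5f1 in every EpiLC library exceeded that in every mESC library. Within a library, the scaling factor cancels. The Sox2 level was 59.7% of the Pou5f1 level in mESC-2i, with 70.4% for mESC-ser and 6.69% for EpiLC, and the Nanog level was 75.9%, 36.4% and 6.09% of it (geometric means). The log2 ratio of Sox2 to Pou5f1 in mESC-ser and mESC-2i overlapped (difference 0.24, exact permutation p = 0.4, two-sided). All other differences of these ratios between states were without overlap and gave the smallest p that an exact permutation of 3 against 3 libraries allows, 0.1, so this test could not reach 0.05. The ratios depend on the length taken for a gene, and with the longest transcript as its length Pou5f1 stood at 648 in place of 393 RPKM in mESC-2i.

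**Figure D2:**
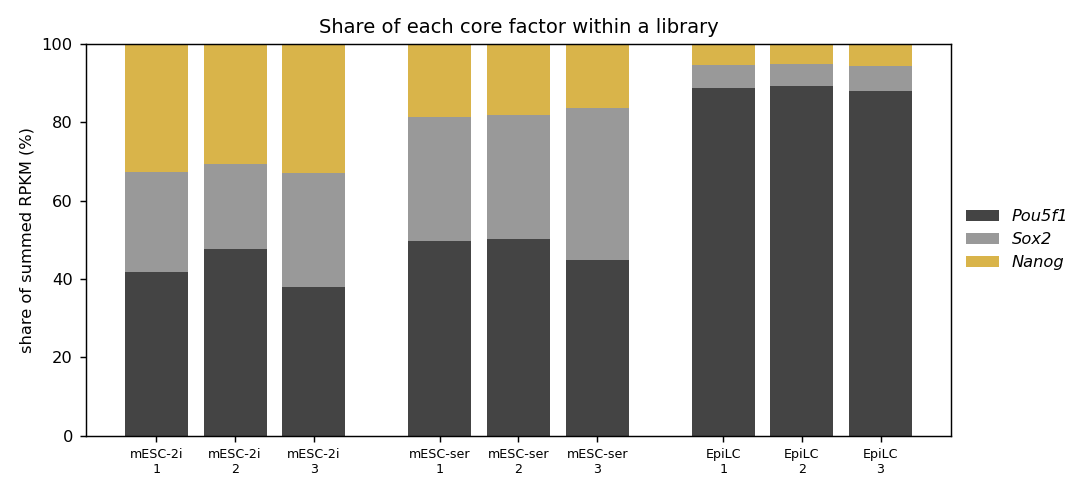
Share of Pou5f1 (dark), Sox2 (grey) and Nanog (yellow) in their summed RPKM, in percent, with 1 bar for each library by state and replicate. Pou5f1 takes 42.5% on average in mESC-2i, while it takes 48.3% for mESC-ser and 88.7% for EpiLC.

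Sall4 was high in mESC-ser. The libraries held 199, 176 and 192 CPM in the mESC-2i libraries, 478, 461 and 548 in those of mESC-ser, and 189, 197 and 191 in the EpiLC libraries. The mESC-2i and EpiLC libraries lay in one range and all mESC-ser libraries above it. Sall4 rose 2.57-fold from mESC-2i to mESC-ser (log2 1.36 ± 0.11 SE, adjusted p = 1.99e-06) and fell by 1.29 on the log2 scale from mESC-ser to EpiLC (adjusted p = 2.09e-10). EpiLC against mESC-2i gave 0.02 (95% interval -0.17 to 0.22). That value was -0.32 (adjusted p = 0.00666) under scaling by total counts and 0.47 (adjusted p = 0.000186) with length and GC offsets, neither past the fold threshold. The non-coding gene Gm14261 overlaps 526 bp of Sall4 on the other strand, 9.5% of its exons, and held 0 to 18 counts. These counts likewise do not bound reads that Sall4 may have lost there.

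Utf1 showed the widest range of the 9 genes. It held 31.3, 29.0 and 24.3 CPM in the mESC-2i libraries, 333, 316 and 365 in those of mESC-ser, and 837, 957 and 907 in the EpiLC libraries. The states did not overlap and rose in that order. The fold change was 11.8 from mESC-2i to mESC-ser (log2 3.56 ± 0.13 SE, adjusted p = 1.77e-08), 32 from mESC-2i to EpiLC (log2 5.00 ± 0.13 SE, adjusted p = 7.72e-10) and 2.8 from mESC-ser to EpiLC (log2 1.49 ± 0.08 SE, adjusted p = 4.45e-11). Utf1 is short, with 1227 bp of exon, and has the highest GC content of the 9 genes at 63.5%. With offsets for length and GC the last of these differences was 0.54 on the log2 scale, still called, and the first 2 were 3.84 and 4.38. In absolute size the difference between EpiLC and mESC-2i exceeded that of 97.2% of the genes tested.

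Dppa2 and Dppa4 lie 9670 bp apart on chromosome 16 and both rose from mESC-2i. Dppa2 held 27.1, 29.4 and 27.1 CPM in the mESC-2i libraries, 139.6, 128 and 121 in those of mESC-ser, and 98.8, 99.2 and 94.9 in the EpiLC libraries. Dppa4 held 35.0, 36.9 and 41.5 CPM in the mESC-2i libraries, 99.5, 100.4 and 91.2 in those of mESC-ser, and 112, 129 and 119.6 in the EpiLC libraries. Every mESC-2i library was below every other library for both genes. The highest state was mESC-ser for Dppa2 and EpiLC for Dppa4. From mESC-2i to mESC-ser, Dppa2 rose 4.56-fold (log2 2.19 ± 0.11 SE, adjusted p = 9.54e-08) and Dppa4 rose 2.52-fold (log2 1.33 ± 0.11 SE, adjusted p = 3.01e-06). From mESC-2i to EpiLC the folds were 3.49 (adjusted p = 4.06e-08) and 3.18 (adjusted p = 1.74e-07). Between mESC-ser and EpiLC the log2 fold changes had opposite signs, -0.34 ± 0.08 for Dppa2 (adjusted p = 0.00135) and 0.38 ± 0.09 for Dppa4 (adjusted p = 0.000552), and neither was called. The Dppa4 difference was -0.02 with length and GC offsets, and the Dppa2 difference was -0.68, and called, under scaling by total counts. Per length, the Dppa2 level was 50.3% of the Dppa4 level in mESC-2i, with 90.6% for mESC-ser and 55.2% for EpiLC. The ratio in mESC-ser did not overlap either other state (exact permutation p = 0.1 for both, the smallest possible), and mESC-2i and EpiLC overlapped (p = 0.5).

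Both genes have a processed pseudogene, an intronless copy of their RNA, that was counted as a gene of its own. Gm9788 on chromosome 19 matches 906 bp of Dppa2 at 99.3% identity, 37.0% of the longest Dppa2 transcript, and Gm14058 on chromosome 2 matches Dppa4 at 99.4% identity and covers 36.0%. Reads of 50 bp from the shared stretches may be split between gene and copy, or left out of both, so the values of both are uncertain. Gm9788 held 10.2% to 13.6% as many counts as Dppa2 in mESC-2i and 14.1% to 15.2% in mESC-ser, but 3.63% to 4.76% in EpiLC. Gm14058 held 25.2% to 26.5% as many counts as Dppa4 in mESC-2i, with 22.8% to 26.3% for mESC-ser and 6.65% to 7.97% for EpiLC. For both copies these shares in the EpiLC libraries lay below all mESC libraries. Gm9788 rose by 2.44 on the log2 scale from mESC-2i to mESC-ser (adjusted p = 5.13e-07) and fell by 2.09 from there to EpiLC (adjusted p = 7.18e-10), and Gm14058 rose by 1.28 (adjusted p = 1.2e-05) and fell by 1.39 (adjusted p = 2.18e-08). Against mESC-2i, EpiLC gave 0.30 for Gm9788 (adjusted p = 0.208) and -0.16 for Gm14058 (adjusted p = 0.362). With the counts of the copies added, an alternative chosen after seeing the data, the log2 fold changes of Dppa2 were 2.22, 1.70 and -0.47 in the 3 comparisons in the order above, and those of Dppa4 were 1.32, 1.44 and 0.16. No call changed.

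**Figure D3:**
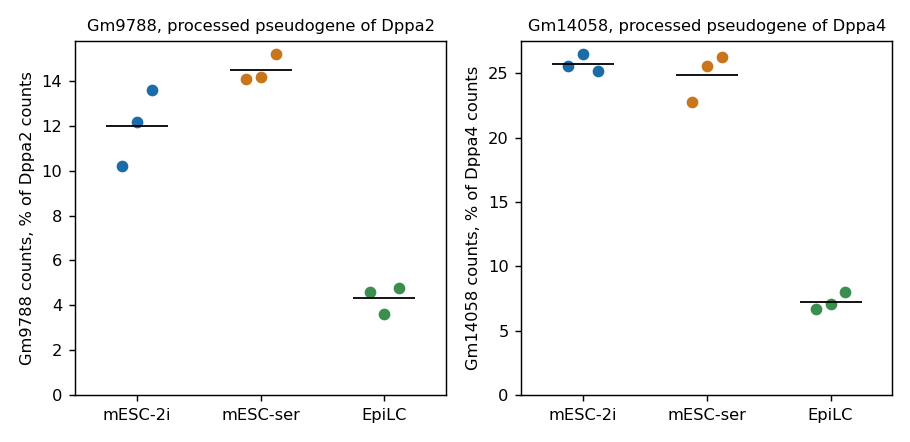
Counts of the processed pseudogenes Gm9788 (left) and Gm14058 (right) as a percentage of the counts of their parent genes Dppa2 and Dppa4, with 1 point for each library and a bar for the mean of 3. Each EpiLC library is below each mESC library, at 3.63% to 4.76% on the left and 6.65% to 7.97% on the right.

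Dppa5a followed another course, lowest in mESC-ser. It held 670.1, 759.5 and 475 CPM in the mESC-2i libraries, 332, 338 and 226 in those of mESC-ser, and 768, 839 and 703 in the EpiLC libraries. The mESC-2i and EpiLC libraries overlapped, and all mESC-ser libraries lay below them. Dppa5a fell by 1.11 on the log2 scale from mESC-2i to mESC-ser (adjusted p = 0.000607) and rose by 1.44 from mESC-ser to EpiLC (adjusted p = 2.27e-08). EpiLC against mESC-2i gave 0.28 (95% interval -0.07 to 0.63, adjusted p = 0.127). At 619 bp of exon, Dppa5a is the shortest of the 9 genes. With offsets for length and GC the values were -0.69, 0.49 and -0.23. The rise from mESC-ser to EpiLC was then under the fold threshold, and the sign of the last value turned. Like Pou5f1, Dppa5a varied among the mESC-2i replicates, with a coefficient of variation of 22.9% against 23% for Pou5f1, and replicate 3 was the lowest for both. The log2 ratio of Dppa5a to Pou5f1 within mESC-2i libraries stayed between 1.34 and 1.47. It ranged from 0.20 to 0.59 in mESC-ser and from 1.32 to 1.58 in EpiLC.

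L1td1 was highest in mESC-ser and intermediate in EpiLC. It held 244, 214 and 271 CPM in the mESC-2i libraries, 1019, 954 and 1118 in those of mESC-ser, and 558, 557 and 593 in the EpiLC libraries. The states did not overlap. L1td1 rose 4.16-fold from mESC-2i to mESC-ser (log2 2.06 ± 0.12 SE, adjusted p = 3.08e-07), stood 2.34-fold higher in EpiLC than in mESC-2i (log2 1.23 ± 0.11 SE, adjusted p = 2.05e-06) and fell by 0.78 from mESC-ser to EpiLC (adjusted p = 9.8e-08).

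**Figure D4:**
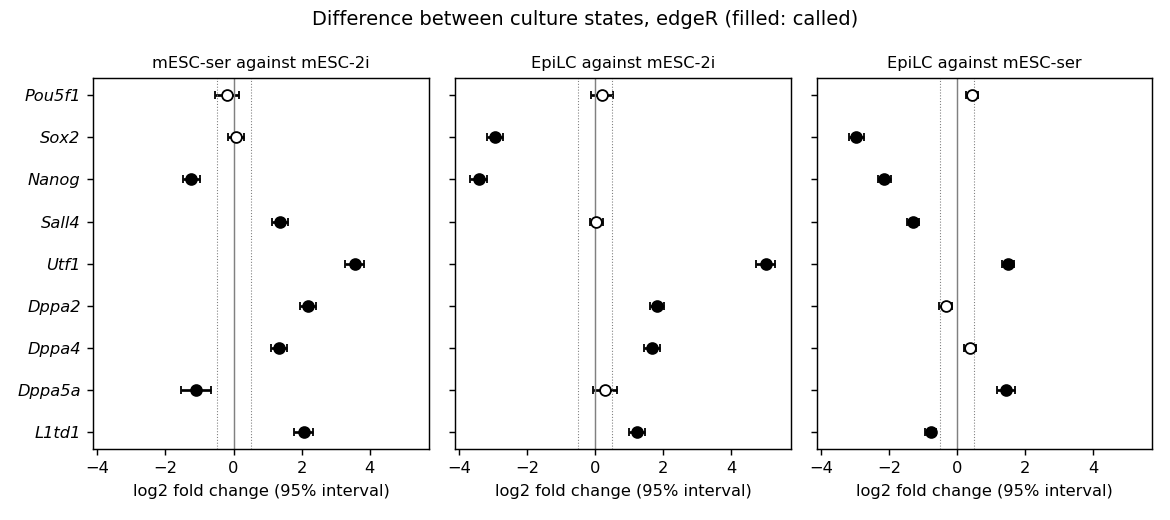
Log2 fold changes of the 9 genes in the 3 comparisons (edgeR), with 95% intervals as whiskers, a solid line at 0 and dotted lines at an absolute log2 fold change of 0.5. Filled points were called, and the points run from -3.43 for Nanog to 5.00 for Utf1, both in EpiLC against mESC-2i.

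Ranked per length, with all annotated exons of a gene as its length, Dppa5a led in every state, at 1026 ± 235 RPKM in mESC-2i, with 482 ± 101 for mESC-ser and 1244 ± 110.3 for EpiLC. In mESC-2i it was followed by Pou5f1 (393 ± 90.3), Nanog (293 ± 26.4), Sox2 (230.1 ± 7.3), L1td1 (76.6 ± 9.03), Sall4 (34.2 ± 2.08), Utf1 (23.0 ± 2.93), Dppa4 (22.7 ± 2.01) and Dppa2 (11.4 ± 0.551). The ranges of Pou5f1 and Nanog overlapped, as did those of Utf1 and Dppa4. In mESC-ser the order after Dppa5a was Pou5f1 (347 ± 26.7), L1td1 (325 ± 26.1), Utf1 (275 ± 20.3), Sox2 (245 ± 27.0), Nanog (126 ± 10.2), Sall4 (89.5 ± 8.26), Dppa4 (58.4 ± 3.06) and Dppa2 (52.9 ± 3.79). Dppa5a, Pou5f1 and L1td1 overlapped from neighbour to neighbour there, and so did Utf1 with Sox2 and Dppa4 with Dppa2. In EpiLC the order was Dppa5a, Utf1 (734 ± 49.2), Pou5f1 (448 ± 11.7), L1td1 (179 ± 6.51), Dppa4 (72.4 ± 5.14), Dppa2 (39.9 ± 0.968), Sall4 (34.7 ± 0.727), Sox2 (28.2 to 33.6) and Nanog (27.3 ± 1.71), and the only neighbours to overlap were Sox2 and Nanog. On this length Utf1 stood at place 7 in mESC-2i and at place 2 in EpiLC, and Nanog at places 3 and 9. Some places depend on the length taken. With the longest transcript as length, Pou5f1 had 573 RPKM and led Dppa5a (482) in mESC-ser, Pou5f1 (739) stood just above Utf1 (734) in EpiLC, and Dppa4 (25.5) stood above Utf1 (23) in mESC-2i. Together the 9 genes took 0.349% ± 0.0376 of the counts of a library in mESC-2i, with 0.414% ± 0.00153 for mESC-ser and 0.328% ± 0.00751 for EpiLC.

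The 2 genes nearest to each pattern were sought over the 9 libraries among 8858 protein-coding genes, by the root mean square difference of log2 CPM centred on each gene's own mean. For Sox2 these were Parvb (0.08) and Il6st (0.09), the latter the signalling receptor subunit for LIF. Il6st stood at 85.3, 85.8 and 10.0 CPM in the mESC-2i libraries, mESC-ser and EpiLC. The nearest to Nanog were Amt and Krt42 (both 0.21) and to Pou5f1 Tsta3 (0.06) and Ech1 (0.07). Sall4 was nearest to Hdlbp (0.05) and Vcl (0.07), Utf1 to Ccno (0.12) and Pcdh1 (0.16), and L1td1 to Srl (0.07) and Enc1 (0.09). Ccno averaged 0.562 CPM in mESC-2i, so its likeness to Utf1 depends in part on the pseudocount of 0.25 added before log2. Dppa2 was nearest to Pkp2 (0.10) and Bcar1 (0.11), Dppa4 to Mns1 (0.06) and Pttg1 (0.11), and Dppa5a to Rack1 (0.07) and Hsd17b10 (0.08). Some patterns were common and others rare, since 766 genes lay within 0.25 of Pou5f1, 322 of Sall4 and 159 of Dppa5a, but 28 of Sox2, 10 of Nanog and 6 of Utf1.

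The counts of called genes in the lists that follow stand beside the same shares of all tested genes as above, 25.9% higher and 30.3% lower for mESC-ser against mESC-2i, 32% and 37.8% for EpiLC against mESC-2i, and 35.5% and 37.8% for EpiLC against mESC-ser. The medians of all tested genes were -0.04, -0.11 and -0.07 in that order. With offsets for length and GC they were 0.02, 0.18 and 0.15. The genes of the lists were not followed under these offsets or the other alternative settings. A listed gene near 0 in one state was tested only where the other state was high enough for the filter, and such a gene had to differ, so in lists with untested genes these counts and medians are partly set by the filter.

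Proteins that work with the core factors, a list of 22 genes with NuRD subunits at its head, were all tested. From mESC-2i to mESC-ser 12 rose and 1 fell, with a median log2 fold change of 0.63 beside -0.04 over all genes. Gatad2b, a NuRD subunit, rose by 2.49, Zfp281, a zinc finger partner of NANOG, by 1.95, and Lin28a, an RNA-binding protein that blocks let-7 maturation, by 1.90. From mESC-2i to EpiLC 4 rose and 7 fell (median -0.14 beside -0.11), with Mbd3, a NuRD subunit, at 1.86, Lin28a at 1.75 and Gatad2b at -1.92. From mESC-ser to EpiLC 2 rose and 10 fell (median -0.41 beside -0.07), and Gatad2b (-4.37), Rif1 (-3.43) and Rest (-2.21) fell most among those with at least 100 counts in the higher group.

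Of 10 genes known as OCT4-SOX2 targets, 2 rose and 4 fell from mESC-2i to mESC-ser, 1 rose and 5 fell from mESC-2i to EpiLC, and 1 rose and 6 fell from mESC-ser to EpiLC. The medians were -0.42, -0.46 and -1.88. Against mESC-2i, EpiLC gave -6.52 for Tcl1, a co-activator of AKT kinase, -5.46 for Fbxo15, an F-box protein of undifferentiated cells, and -4.65 for Zfp42, the naive marker REX1. From mESC-2i to mESC-ser, Jarid2, a cofactor of Polycomb repressive complex 2, rose by 2.26, the MYC family gene Mycn rose by 1.26, and Tcl1 fell by 2.13. The target genes thus moved in both directions.

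Of 8 genes known to need DPPA2 and DPPA4, 6, 4 and 6 were tested in the 3 comparisons, taken in the same order. Called higher were 6, 4 and 0, and called lower 0, 0 and 5. Zscan4f, Tcstv3 and Usp17lc were at the floor in mESC-2i (3 counts or fewer in each library). Zscan4c and Zscan4d were close to it there, at 0.244 and 0.248 CPM. Where tested against mESC-2i, these genes passed the filter only through the higher state. No weight is therefore put on the counts in comparisons with mESC-2i, and no median is given for them. Tcstv3 (0.608 CPM) and Usp17lc (0.363 CPM) were low in EpiLC and were tested against mESC-ser only through their mESC-ser level. The number called lower in EpiLC against mESC-ser is thus also partly set by the filter. The tested genes include Zscan4c, Zscan4d and Zscan4f, genes of 2-cell-like cells whose near-identical copies make single values uncertain. Zscan4c stood at 0.244 ± 0.0739 CPM in mESC-2i, with 34.9 ± 8.02 for mESC-ser and 3.74 ± 1.3 for EpiLC. Set against a floor of 3 counts in each mESC-2i library, the mESC-ser level of Zscan4f was at least 119.9-fold higher. Syce1, a component of the meiotic synaptonemal complex with counts in every state, rose by 0.92 from mESC-2i to mESC-ser and by 1.22 from mESC-2i to EpiLC.

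Relatives of the 9 genes moved in both directions. In the POU family 9, 8 and 7 of 13 genes were tested in the 3 comparisons (mESC-ser against mESC-2i, EpiLC against mESC-2i and EpiLC against mESC-ser). Of these 4 rose and 4 fell (median -0.27), 2 rose and 5 fell (median -1.03), and 2 rose and 4 fell (median -0.60). Pou3f1, the neural and formative factor OCT6, rose by 5.08, 7.12 and 2.09. In the SOX family 11, 10 and 10 of 18 were tested, of which 5 rose and 3 fell (median -0.20), 5 rose and 4 fell (median 0.74), and 4 rose and 6 fell (median -0.53). Sox3, the closest relative of Sox2 together with Sox1, rose by 3.65 from mESC-2i to EpiLC and by 2.88 from mESC-ser to EpiLC, while the values in the same comparisons were -4.31 and -2.40 for Sox1 and -6.60 and -6.36 for Sox21, which both fell. Sox2 and Sox3 therefore differed in sign in both comparisons with EpiLC. The 3 other SALL genes all rose from mESC-2i to mESC-ser, Sall1 by 0.92, Sall2 by 0.71 and Sall3 by 0.65 (median 0.71). In EpiLC Sall2 rose by 3.26 against mESC-2i and Sall3 fell by 3.42, with 1 of 3 in each direction (median -0.36), and against mESC-ser 1 rose and 2 fell (median -1.24).

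Dppa5a has relatives with a KH domain that act in oocytes, and 2 of 5 were tested. Ooep, 7931 bp from Dppa5a, fell by 0.90 from mESC-2i to mESC-ser and rose by 0.52 from there to EpiLC, and Khdc3 fell by 1.48 and was then at least 51.3-fold lower in EpiLC than in mESC-ser, against a floor of 3 counts. The medians of the pair were -1.19 from mESC-2i to mESC-ser, -4.32 from mESC-2i to EpiLC (-3.78 with Khdc3 at its bound, 1 fell) and -3.09 from mESC-ser to EpiLC (-2.58 with the bound). Of 6 repressors of Pou5f1 or Nanog, 1 rose and 2 fell, 2 rose and 2 fell, and of 4 tested 1 rose and 1 fell, with medians of 0.06, -0.07 and -0.09. Nr6a1, the nuclear receptor GCNF that silences Pou5f1 on differentiation, rose by 2.64 from mESC-2i to mESC-ser and by 1.85 to EpiLC. Pou5f1 was not called in either comparison.

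The sums of the markers of other cell types lay below the sum of the 9 genes. The latter averaged 3174, 3956 and 3779 CPM in the mESC-2i libraries, mESC-ser and EpiLC. Single markers were not all below single genes of the 9. In mESC-2i, the endoderm marker Lama1 averaged 218 CPM, above Sall4 (189), Dppa4 (37.8), Utf1 (28.2) and Dppa2 (27.9), with the other genes of the 9 above it. The streak marker T averaged 86.5 CPM there, above Dppa4, Utf1 and Dppa2. These values are not per length. The 11 primitive endoderm markers summed to 242 to 319.6 CPM in mESC-2i, with 244 to 295 for mESC-ser and 28.1 to 30.9 for EpiLC. The 7 trophectoderm markers summed to 67.6 to 88.8, 208 to 232 and 81.4 to 84.1 CPM, with Krt8 and Krt18 leading in mESC-ser. The 6 primitive streak markers summed to 97.7 to 116, 13.8 to 17.2 and 3.51 to 4.53 CPM. The 5 neural markers summed to 62.0 to 68.6, 88.5 to 100.4 and 29.4 to 32.1 CPM, and the 7 fibroblast markers to 44.6 to 52.2, 58.0 to 78.0 and 40.9 to 45.5 CPM. In EpiLC 1 gene in each of 3 of these lists was at 0 in all libraries, namely Elf5, Neurog2 and Lum, and no other listed marker was at 0 in all libraries of a state. The part of such cells in the differences of the 9 genes was not tested. In the order of comparisons used for the POU family, called genes that rose and fell were 6 and 3 of 10, 1 and 5 of 8, and 1 and 8 of 10 for endoderm, and 4 and 2 of 6, 1 and 4 of 5, and 0 and 5 of 6 for trophectoderm. They were 0 and 2, 0 and 3, and 1 and 3 of 4 for streak, 2 and 3 of 5, 0 and 4 of 5, and 0 and 3 of 3 for neural, and 1 and 1 of 4, 2 and 3 of 5, and 2 and 3 of 5 for fibroblast markers. Their medians were 0.64, -1.23 and -2.91 for endoderm, 1.77, -1.22 and -2.87 for trophectoderm, -2.0, -5.12 and -2.22 for streak, -1.87, -3.08 and -2.40 for neural and 0.28, -1.55 and -1.57 for fibroblast markers. Where such bounds replaced fitted values of genes at the floor, 3 of these medians differed, at -2.38 for endoderm in EpiLC against mESC-ser, and at -4.23 for streak and -1.91 for neural markers in EpiLC against mESC-2i.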

How the data were processed

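RNA-seq of E14 cells in 3 states was used, with 3 biological replicates each. Per the labels and the study's methods, poly-A RNA was prepared with a TruSeq kit and sequenced as 50 bp single-end reads. The submitters' processing notes name FastQC 0.11.0, Trim Galore 0.6.6, HISAT2 2.2.1 and Subread 2.0.1, whose featureCounts was used on the mm10 build. The authors deposited raw read counts for each Ensembl gene, with no normalization. The annotation release, the strand setting and how multi-mapping reads were handled are not given in the sources used here. Only the RNA-seq of the study was used.

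All columns were assigned to samples by name. Symbols, positions and exonic lengths came from GENCODE M21 on GRCm38, which matched 36345 of 38293 identifiers (94.9%). The 6 libraries of each pair of states were fitted by themselves in edgeR 4.0.16 (R 4.3.3, limma 3.58.1), using filterByExpr, TMM and the quasi-likelihood test. The fold and adjusted p thresholds follow the study, and the pairwise fits were chosen here. P-values measure the spread between replicates that the labels call biological. The 9 genes and all lists were chosen with earlier results of these data known, so counts of calls in them are descriptions.

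Named genes were all 9, for each list up to 3 called genes per comparison with the largest change whose higher group averaged 100 counts or more, the 2 genes of most like pattern (protein-coding, mean of at least 10 CPM, pseudocount 0.25 before log2), and the nearest protein-coding gene on each side. Not every gene the rule allows is named. Gm9788, Gm14058, Gm19553, Gm14261 and Acyp1 were named for their sequence or position. Copies of at least 50 bp at 98% identity were sought in the annotated transcripts in place of the genome, and proteins were not analysed here.

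Pairing by replicate number was checked from correlations of deviations of log2 CPM (prior count 2) from the mean of each state. Of the mESC libraries, same-numbered libraries correlated at 0.129, 0.182 and 0.345, all over 0.1. The differently numbered mESC-ser 1 and mESC-2i 2 stood at 0.146, and the other unlike pairs at 0.065 or lower. The numbers were tried as pairs in a replicate block, while the main fits were unpaired. The meaning of a number is not given in the labels. The alternatives were scaling by RLE, upper quartiles or total counts, DESeq2 1.42.0, leaving out the filter or asking for 10 counts in every library, 1 fit of all 9 libraries, the replicate block, offsets from splines (5 degrees of freedom) of length and GC, other thresholds, the longest transcript as length, and leaving out replicates. The steps were tested on simulated data. Without molecular identifiers, a floor covers counting error alone.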

Additional observations from a re-analysis of the deposited data

How the results depend on the processing

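The 27 log2 fold changes of the 9 genes were set against 20 other settings each, 540 values in all. In 2 of the settings only the thresholds changed and the fitted values were reused, so no sign could change there. The setting with pseudogene counts added altered the counts of Dppa2 and Dppa4 alone among the 9. Of the 540 values, 520 kept their direction and their side of the thresholds, 3 lost a call, 4 gained one and 13 changed sign. Every change of sign concerned a difference that was not called. With length and GC offsets Pou5f1 was 0.12 for mESC-ser against mESC-2i and -0.09 for EpiLC against mESC-ser, Dppa5a was -0.23 in EpiLC against mESC-2i, and Dppa4 was -0.02 in EpiLC against mESC-ser. With the replicate block added to these offsets the same values were 0.14, -0.09, -0.23 and -0.03. Under both settings 1 of the 9 genes was called higher in EpiLC against mESC-ser, in place of 2, since Dppa5a was at 0.49. Without a fold threshold all 9 were called there, 4 higher and 5 lower, Pou5f1 and Dppa4 being added to the higher and Dppa2 to the lower. In EpiLC against mESC-2i, total-count scaling gave -0.15 for Pou5f1, -0.32 for Sall4 and -0.06 for Dppa5a, and a filter of 10 counts in every library gave -0.04 for Sall4. Total-count scaling moved the median of all genes from -0.11 to -0.45 for EpiLC against mESC-2i and from -0.07 to -0.41 for EpiLC against mESC-ser, and the share of called genes that were higher from 45.9% to 33.8% and from 48.4% to 37.4%. It put the summed level of the 9 genes at 3487 CPM for mESC-2i, 4142 for mESC-ser and 3283 for EpiLC, so that EpiLC lay below mESC-2i, and not above it as under TMM (3779 and 3174). Leaving out replicates turned 1 sign, that of Sox2 in mESC-ser against mESC-2i, at -0.01 without mESC-ser replicate 3. The largest movement of a called value then was that of Dppa5a, between -1.28 and -0.93 in mESC-ser against mESC-2i. L1td1 in EpiLC against mESC-ser (-0.78) was not called at an absolute log2 fold change over 1.

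The replicate block was tested because same-numbered mESC libraries correlated, most strongly those numbered 3 (0.345). For number 1 the value (0.129) was under that of mESC-ser 1 with mESC-2i 2 (0.146), so the numbers need not mark pairs. The block changed no call among the 9 genes, with 5 higher and 2 lower in mESC-ser against mESC-2i. Over all genes it gave 8953 calls in place of 8843. Same-numbered libraries correlated at 0.0195 to 0.112 between EpiLC and mESC-2i and at 0.0165 to 0.0335 between EpiLC and mESC-ser. These were not all over 0.1, and the block left 4 higher and 2 lower, and 2 higher and 4 lower.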

Other observations

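The nearest protein-coding neighbours of the 9 genes were looked at as well. Slc2a3, a glucose transporter gene 13175 bp from Nanog, fell where Nanog fell, by 0.71 from mESC-2i to mESC-ser, by 4.84 from mESC-2i to EpiLC and by 4.08 from mESC-ser to EpiLC on the log2 scale. On the other side of Nanog at 77216 bp, Dppa3, the oocyte and germ cell factor Stella, rose by 1.28 from mESC-2i to mESC-ser and fell by 1.69 from there to EpiLC. Kndc1, 2251 bp from Utf1, rose by 2.40 to mESC-ser and by 2.83 to EpiLC, and its difference between the latter states was 0.48, under the fold threshold. Tcf19, 1961 bp from Pou5f1, fell by 0.79 from mESC-2i to mESC-ser and rose by 1.27 from there to EpiLC. Atp9a, 5922 bp from Sall4, fell by 1.60 from mESC-2i to mESC-ser, where Sall4 rose. Patj, 7130 bp from L1td1, rose by 0.64 from mESC-2i to mESC-ser and fell by 0.62 from there to EpiLC, with the signs of L1td1, but EpiLC against mESC-2i gave -0.03 for Patj, where L1td1 rose. Kank4, 16417 bp from L1td1 on the other side, fell by 2.39 in that comparison. The nearest tested neighbours of Sox2, Dnajc19 and Atp11b, lie 569083 and 1101644 bp away.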
